A study of Mus musculus with 12 samples.

Results

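RNA recovered with antibodies against YTHDF1, YTHDF2 and YTHDF3, combined with equal weight for each protein, was compared with input RNA from cultured mouse hippocampal neurons. The comparison used all 12 libraries of the count table, namely 3 libraries of each RNA immunoprecipitation (RIP) and 3 of Input. Of 55573 genes in the count table, 17126 had a mean normalized count of 10 or more and were tested. Among these, 1448 (8.45%) were enriched over input in each of the 3 RIPs and are called the shared enriched set, and 2362 (13.8%) were depleted in each and are called the shared depleted set. All groups were hippocampal neurons taken from newborn mice (strain C57BL/6) and cultured for 14 days, with no genotype difference or drug treatment between them. The endogenous proteins were precipitated from cell lysate, and Input was RNA from a fraction of that lysate with no antibody. By the study's methods, the lysate of 1 replicate was pooled, split for the 3 RIPs and served as their shared input, so that the 9 RIP libraries were not 9 independent cultures, the 3 comparisons shared their input libraries, and p-values treat the 12 libraries as independent. Every value is relative to input alone, since a control-antibody precipitation was not analysed here.

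N6-methyladenosine (m6A) is a methylated adenosine found within mRNAs, often in the sequence context GGACT and often in long exons and near stop codons. It is written by the METTL3 and METTL14 complex, removed by demethylases, and read by proteins with a YTH domain. YTHDF1, YTHDF2 and YTHDF3 are cytoplasmic readers with closely related sequences, and in other cells they are known to recruit the CCR4-NOT deadenylase and to influence the decay and translation of the mRNAs they bind. In neurons, m6A readers have been linked to the transport and local use of synaptic mRNAs.

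Libraries held between 6020072 and 38909592 counts. The cells were checked against marker genes. Neuronal markers were all measured (17 of 17 tested), with a summed level of 4079 to 6864 normalized CPM (read counts relative to the scaled library size, with values for YTHDF1, YTHDF2 or YTHDF3 being those of that RIP) in Input and 3251 to 9750 in the RIPs. Astrocyte markers (11 of 12 tested) were at 1120 to 3967 in Input and 1331 to 4200 in the RIPs. Of the oligodendrocyte, microglia and endothelial or mural markers, 8 of 11, 2 of 12 and 5 of 10 were tested. Oligodendrocyte markers summed to 63.5 to 431 CPM in Input and 73.6 to 1278 in the RIPs, endothelial or mural markers to 13.4 to 24.8 and 19.4 to 37, and microglia markers to 8.7 to 21.9 CPM in Input and 2.34 to 12.3 in the RIPs. The neuronal and astrocyte ranges of Input and RIPs overlapped, and no marker tested was at 0 in all libraries. The part of these cells in the results was not tested.

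With the 3 RIPs together, 3946 genes (23.0%) were enriched and 4388 (25.6%) depleted, which is 48.7% of genes called in either direction. A call required a log2 fold change of 0.32 or more in size and p of 0.05 or less in edgeR's quasi-likelihood test after Benjamini-Hochberg adjustment. Over all genes tested, the median of this log2 fold change was 0.06. Among the enriched genes, 1448 (36.7%) were also called in each single RIP, 1363 (34.5%) in 2, 1112 (28.2%) in 1 and 23 in none. Among the depleted genes, 2362 (53.8%) were called in each RIP, 1273 in 2, 682 in 1 and 71 in none. Only 234 genes (1.37%) were enriched in one RIP and depleted in another, and 5419 (31.6%) had no call of any kind. TMM factors set over protein-coding genes alone moved the median of all genes to -0.06 and the shared sets to 1110 and 2714 genes. With the replicate number as a block the shared sets held 1380 and 2309 genes, and with the block and each RIP fitted with Input alone 923 and 2018. Fbxo25 was the last gene inside the shared enriched set and Farp1 the first outside it, with largest adjusted p-values over the 3 RIPs of 0.0496 and 0.0501. At the same edge of the shared depleted set stood Dctn4 at 0.0498 and Psmd4 at 0.0505.

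The 2 sets were unlike each other in the amount and kind of RNA they held. The shared enriched set took 9.17 to 9.55% of the counts of tested genes in the Input libraries and 19.9 to 31.7% in the RIP libraries, while the shared depleted set took 31.9 to 35.9% in Input and 2.52 to 5.16% in the RIPs. These shares describe sets chosen on the same libraries. Protein-coding genes made up 1353 (93.4%) of the enriched and 1563 (66.2%) of the depleted set, against 79% of genes tested. Processed pseudogenes, which are reverse-transcribed copies of mRNAs, supplied 650 (27.5%) of the depleted and 23 of the enriched set, against 9.3% of genes tested.

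Independently of the sets, the protein-coding share of counts was 63.3 ± 1.3% in Input and rose to 93 ± 3.11% for YTHDF1, 72.3 ± 2.79% for YTHDF2 and 95 ± 0.409% for YTHDF3 (mean ± SD, n = 3 each). All 9 RIP libraries lay above all 3 inputs. The difference of 23.5 percentage points gave an exact two-sided permutation p of 0.00455 (0.00606 adjusted over 4 RNA classes), the smallest that 220 choices of 3 from 12 libraries allow, and 0.0156 where libraries were exchanged within a replicate number. Pseudogenes fell from 4.48 ± 0.462% of counts in Input to between 1.48 and 2.36% in the RIP libraries (exact permutation p = 0.00455). Small RNA classes fell from 29.7 ± 1.4% to 2.86 ± 2.64%, 21.5 ± 2.86% and 0.67 ± 0.155% for YTHDF1, YTHDF2 and YTHDF3 (exact permutation p = 0.00455). The YTHDF2 RIP thus stood nearest to Input in this class, although its libraries, at 18.2 to 23.6%, did not overlap with the inputs, at 28.2 to 30.9%. The class included 41 rRNA genes, and reads of identical entries such as Rn7s1 and Rn7s2 were counted for both. Rn7s1 averaged 42250 CPM in Input and 1492 for YTHDF2, so little of the YTHDF2 share was Rn7s1. All classes are shares of 1 total, so the protein-coding rise and these falls are not separate results. Long non-coding RNAs did not pass (0.398 percentage points, exact permutation p = 0.532).

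**Figure D1:**
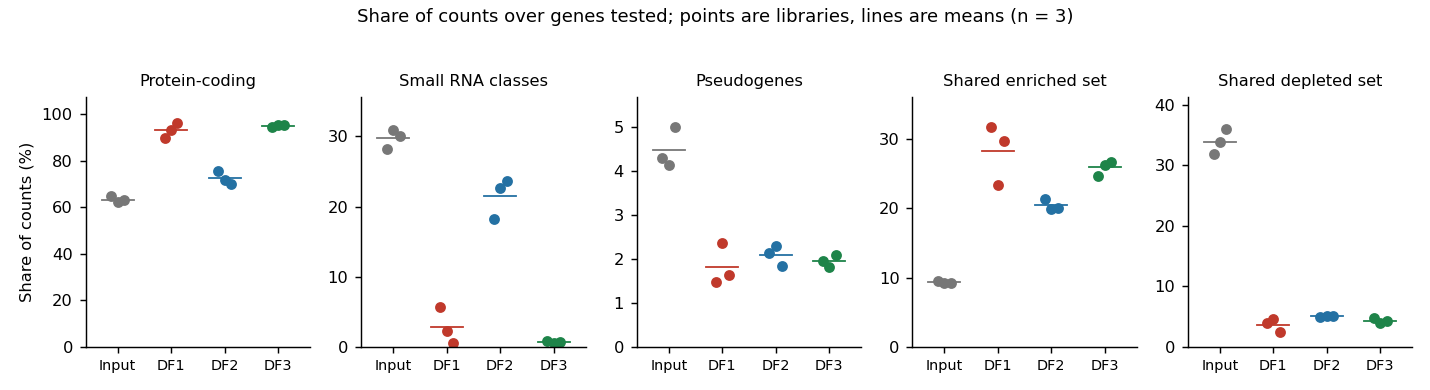
Share of the counts of tested genes (%) in 12 libraries (points; lines are means of 3) for 3 RNA classes and the 2 shared sets, with DF1, DF2 and DF3 standing for the YTHDF RIPs. Protein-coding genes lay between 70.1 and 96% in the RIPs and 62.2 and 64.7% in Input, and the small RNA classes stayed at 18.2 to 23.6% for YTHDF2 alone among the RIPs.

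The first 10 protein-coding genes by the smallest of the 3 fold changes were Tnxb, Celsr1, Soga1, Tnrc18, Mfhas1, Spen, Apc2, Snhg11, Ppp1r26 and Zcchc14, with log2 fold changes of the 3 RIPs together between 2.03 and 3.15. All 9 RIP libraries of a leading gene lay on one side of the inputs because the choice of these genes required it. Spen, a large transcriptional repressor with RNA-binding domains, was at 147, 166 and 176 CPM in Input, 1638, 959 and 1316 for YTHDF1, 586, 574 and 625 for YTHDF2, and 439, 521 and 593 for YTHDF3. The YTHDF1 libraries were the highest. The log2 fold change of the 3 RIPs together was 2.18 ± 0.20 (SE), and the 3 RIPs differed from each other (edgeR adjusted p = 0.00121 in the F test of YTHDF1, YTHDF2 and YTHDF3). Apc2, a relative of the Wnt regulator APC, was at 205, 170.0 and 254 CPM in Input, 1723, 1407 and 1350 for YTHDF1, 731, 852 and 726 for YTHDF2, and 606, 594 and 788 for YTHDF3. The YTHDF1 libraries were again the highest, with 2.12 ± 0.20 for the RIPs together. Zcchc14, a zinc finger protein, rose from 113, 111 and 130.3 CPM to between 334 and 874 in the RIP libraries (log2 fold change 2.03 ± 0.17).

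The F test among the RIPs did not pass for 830 (57.3%) of the enriched members, and the 3 log2 fold changes spanned a median of 0.62. Celsr1, an adhesion receptor of the planar cell polarity pathway, changed by 2.60, 2.69 and 2.01 on the log2 scale for YTHDF1, YTHDF2 and YTHDF3, and the F test among the RIPs did not pass (edgeR adjusted p = 0.421). These span more than the set's median, and the spread over libraries was wide, from 17.4 to 43.1 CPM in Input and from 53.5 to 217 in the RIPs. Tnxb, an extracellular matrix protein, changed by 3.03, 2.60 and 2.11 (adjusted p among the RIPs 0.242), at only 0.609 to 1.93 CPM in Input. Snhg11, a host gene of small nucleolar RNAs that this annotation lists as protein-coding, differed among the RIPs. It was at 240.3, 140.3 and 71.5 CPM in Input, 12053, 10740 and 6187 for YTHDF1, 477, 277 and 653 for YTHDF2, and 752, 513 and 315 for YTHDF3. The YTHDF1 libraries were far above all others, with log2 fold changes of 6.00, 1.64 and 1.81 in the 3 RIPs (edgeR adjusted p among the RIPs 8.96e-05). Among members not annotated as protein-coding, the leading names were Zfp469, Peg13, Zfp862-ps, Phf20-ps and AC134468.1. Peg13, an imprinted long non-coding RNA, was at 63.9, 51.6 and 73.6 CPM in Input and 169.7 to 574 in the RIPs, and changed by 2.55, 2.79 and 1.54.

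**Figure D2:**
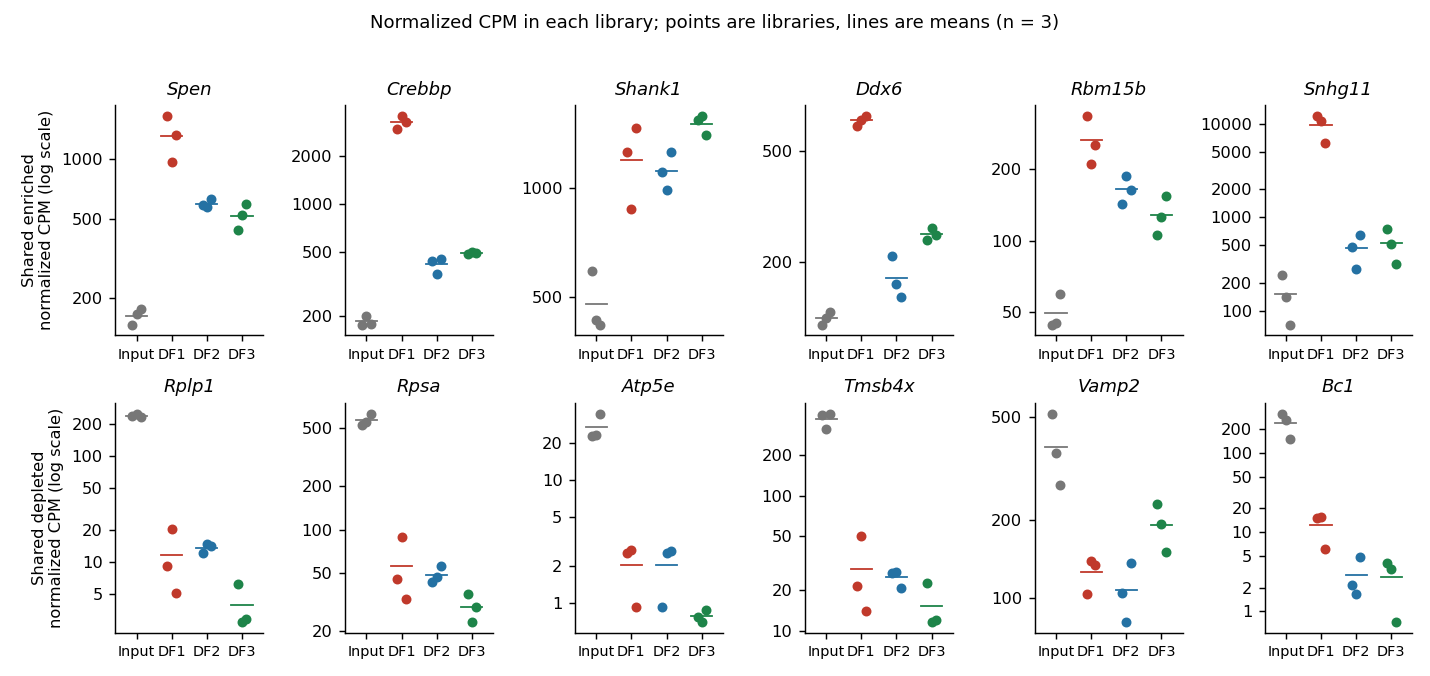
Normalized CPM (log scale) in each library for 6 genes of the shared enriched set (top row) and 6 of the shared depleted set (bottom row), with points for libraries and lines for means of 3. All RIP libraries lie on one side of the inputs, which the choice required of the leading genes, with Snhg11 at 6187 to 12053 CPM for YTHDF1 and 277 to 752 in the other RIPs.

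The m6A machinery was itself among the RNAs recovered. This and the later gene lists were chosen with earlier results of these data known, so their counts are descriptions. Of 16 genes for writers, erasers and readers, 9 were enriched and 1 depleted with the RIPs together, against 23.0% and 25.6% of all genes, with a median log2 fold change of 0.48 against 0.06 for all genes. With a smooth trend on exonic length removed from each library, the list's median was 0.27. The 4 in the shared enriched set were Rbm15, Rbm15b, Ythdf3 and Virma, the last named after its values were seen. RBM15 and RBM15B are RNA-binding subunits that guide the methyltransferase. Rbm15b was at 44.3, 45 and 59.6 CPM in Input, 336, 211 and 253 for YTHDF1, 143, 188 and 164 for YTHDF2, and 106, 126 and 154 for YTHDF3, which is 1.85 ± 0.20 on the log2 scale for the RIPs together. Rbm15b shares exon sequence on its strand with Manf, and such reads were counted for both. Rbm15 was far more uneven, at 22.9 to 28.8 CPM in Input, 535 to 1077 for YTHDF1 and 42.4 to 55.3 in the other RIPs. Its log2 fold changes were 4.87, 1.00 and 0.78 (edgeR adjusted p among the RIPs 2.64e-06). Fto, an m6A demethylase, was the 1 member in the shared depleted set. It was at 87.5, 93.3 and 72.5 CPM in Input and 44.2 to 64.1 in the RIPs, and it changed by -0.68 ± 0.13, with no call in the F test among the RIPs (edgeR adjusted p = 0.266).

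The mRNAs of the precipitated proteins were each enriched with the RIPs together. Ythdf1 rose by 0.46 ± 0.17 (edgeR adjusted p = 0.0478), Ythdf2 by 0.51 ± 0.13 (0.00594) and Ythdf3 by 1.15 ± 0.19, all on the log2 scale. Without the YTHDF1 RIP, Ythdf1 was at 0.36 and Ythdf2 at 0.12 and neither passed. Ythdf3 was the only one in the shared set, at 42 to 49.6 CPM in Input, 140.3 to 271 for YTHDF1, 65 to 71.1 for YTHDF2 and 62.9 to 74.2 for YTHDF3.

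Of 26 factors of deadenylation and mRNA decay, which shorten poly(A) tails and remove caps, 12 were enriched and 4 depleted (median 0.46), and 7 and 2 of them were in the shared sets. Of all genes, 23.0% were enriched and 25.6% depleted, and 8.45% and 13.8% were in the shared sets. Ddx6, a helicase of P-bodies, was at 119, 126 and 132 CPM in Input, 618, 649 and 671 for YTHDF1, 209.8, 167 and 149.8 for YTHDF2, and 240.1, 266 and 249 for YTHDF3. The inputs were lowest throughout and the YTHDF1 libraries highest, with 1.28 ± 0.15 for the RIPs together. Pan3, a subunit of a deadenylase, changed by 2.96, 1.05 and 0.89, and Cnot1, the scaffold of CCR4-NOT, by 1.55, 0.72 and 1.15. With the length trend removed, the list's median was 0.10, and Cnot1 was at 0.25 for the RIPs together and was no longer called. Cnot7, a catalytic subunit of the same complex, went the other way at -0.78 ± 0.16 (edgeR adjusted p = 0.00179), and without the YTHDF1 RIP it was at -0.3 and did not pass.

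Genes of histone methylation and chromatin remodelling formed another list, of which 39 of 53 differed among the RIPs in the F test, against 32.3% of all genes. Of the 53, 52 were enriched with the RIPs together and none depleted, with a median log2 fold change of 1.24, and 37 were in the shared enriched set. The shares of all genes were 23.0%, 25.6% and 8.45%. These genes are long, with a median exonic length of 13540 bases against 3886 for all genes tested, and with the length trend removed their median was 0.56. Like the other lists, this list was chosen with earlier results known, which may shape its counts. Crebbp, a histone acetyltransferase and coactivator, was at 176, 198 and 178 CPM in Input, 2946, 3584 and 3292 for YTHDF1, 443, 366 and 453 for YTHDF2, and 489, 501 and 493 for YTHDF3. Its 3 RIPs did not overlap with Input, and they differed from each other (log2 fold changes 4.15, 1.19 and 1.43, edgeR adjusted p among the RIPs 2.64e-06). Kmt2d, a histone H3 methyltransferase, was at 234 to 261 CPM in Input, 1850 to 3206 for YTHDF1, 584 to 839 for YTHDF2 and 604 to 667 for YTHDF3. Nsd1, another methyltransferase, changed by 1.78 ± 0.19. Chd3, a remodeller, was the exception at 0.15 ± 0.16 (edgeR adjusted p = 0.487). Zfp zinc finger genes, mostly encoding DNA-binding repressors, had 173 of 367 enriched and 24 depleted (median 0.53), and 177 of them differed among the RIPs. These compare with 23.0%, 25.6% and 32.3% of all genes. Zfp26 was at 19.7 to 25.6 CPM in Input, 483 to 1755 for YTHDF1 and 42.8 to 81.8 in the other RIPs.

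Synaptic genes were described by 3 lists. For comparison, 23.0% of all genes were enriched and 25.6% depleted with the RIPs together, and 8.45% were shared enriched. Of 28 genes for postsynaptic scaffolds and the SynGAP complex, 14 were enriched and 1 depleted (median 0.79, or 0.08 with the length trend removed), and 5 were in the shared enriched set. Shank1, a master scaffold of the postsynaptic density, was at 588, 431 and 419.6 CPM in Input, 1254, 875 and 1461 for YTHDF1, 1104, 987 and 1259 for YTHDF2, and 1541, 1581 and 1396 for YTHDF3. The RIP libraries all lay above the inputs, at 1.40 ± 0.20 for the RIPs together, and the test among the RIPs did not pass (edgeR adjusted p = 0.293). Ank2 and Ank3, which encode ankyrins that anchor channels to the cytoskeleton, both changed by 1.65, with standard errors of 0.22 and 0.20. Dlg4, which encodes the scaffold PSD-95, did not pass (-0.52 ± 0.31, edgeR adjusted p = 0.191), and its 3 RIPs differed, at 0.38, -1.06 and -0.87 (adjusted p among the RIPs 0.0226).

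Of 19 presynaptic active zone genes, 13 were enriched and none depleted (median 1.00, or 0.37 with the length trend removed), with 7 in the shared enriched set. The shares of all genes were 23.0%, 25.6% and 8.45%. Unc13a, a vesicle priming factor, was at 306, 253 and 196 CPM in Input, 722, 596 and 1041 for YTHDF1, 509, 355 and 522 for YTHDF2, and 638, 503 and 350.2 for YTHDF3. Its lowest RIP value lay just above its highest input, and with the length trend removed its change of 1.17 ± 0.25 was at 0.44 and not called. Bsn and Pclo, the large scaffolds Bassoon and Piccolo, were enriched with the RIPs together (2.19 ± 0.55 and 1.74 ± 0.32, edgeR adjusted p = 0.0064 and 0.000942) but were not members of the shared set. Of 27 synaptic vesicle and SNARE genes none was enriched, and 8 were depleted (median -0.37), with 5 in the shared depleted set, against 25.6% and 13.8% of all genes. Vamp2, the synaptic vesicle SNARE synaptobrevin, was at 517, 363 and 274 CPM in Input, 104, 139.6 and 134 for YTHDF1, 105, 80.6 and 137 for YTHDF2, and 232, 193 and 151 for YTHDF3. No RIP library reached the lowest input, and the change was -1.48 ± 0.21. Syt1, the vesicle calcium sensor, was at 0.09 ± 0.35 and did not pass (edgeR adjusted p = 0.859).

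Membrane receptors and channels were described by another 3 lists. For comparison, 23.0% of all genes were enriched and 25.6% depleted with the RIPs together, and 8.45% were shared enriched. Of 32 adhesion receptor genes, 27 were enriched and none depleted (median 1.32, or 0.52 with the length trend removed), and 15 were shared members, among them Lrp1, Nrxn2 and Celsr1. Lrp1, an endocytic receptor, was at 380.5, 654 and 583 CPM in Input, 2294, 2935 and 3438 for YTHDF1, 1361, 1321 and 1683 for YTHDF2, and 837, 1314 and 1285 for YTHDF3. Nrxn2, a presynaptic adhesion molecule, changed by 0.99 ± 0.18 and was not called once the length trend was removed. Of 12 pore subunits of voltage-gated sodium and calcium channels, 11 were enriched (median 1.00, or 0.29 with the length trend removed) but only 3 were shared members. Of 10 AMPA and NMDA receptor subunits, 4 were enriched (median 0.72, or 0.22 with the length trend removed), and Gria2 and Grin3a were shared members, while Gria1 (0.29 ± 0.23, edgeR adjusted p = 0.323) and Gria4 (-0.17 ± 0.27, 0.638) did not pass. Gria2 was at 391, 380.2 and 308 CPM in Input, 687, 881 and 1146 for YTHDF1, 590.2, 561 and 623 for YTHDF2, and 834, 753 and 738 for YTHDF3, and with the length trend removed it was at 0.21 for the RIPs together and not called. Grin2b was enriched with the RIPs together (1.11 ± 0.28, edgeR adjusted p = 0.00669), but its YTHDF2 value was -0.08, and without the YTHDF1 RIP it was at 0.41 and did not pass. Immediate early genes, which neurons switch on upon activity, had 5 of 26 enriched and none depleted, against 23.0% and 25.6% of all genes. Their median was 0.58, or 0.73 with the length trend removed, against 0.06 for all genes. Ier5 and Egr2 were their 2 shared members, the latter named after its values were seen.

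Of the other RNAs the study followed, Map2 was enriched with the RIPs together (0.73 ± 0.25, edgeR adjusted p = 0.028), though at -0.10 for YTHDF2 and at -0.14 once the length trend was removed. Camk2a (0.45 ± 0.42, edgeR adjusted p = 0.405), Homer1 (0.59 ± 0.26, 0.0768) and Bdnf (1.26 ± 0.50, 0.0548) did not pass. Actb was depleted with the RIPs together at -1.04 ± 0.29 (edgeR adjusted p = 0.0116), but one YTHDF1 library, at 4418 CPM, lay above the highest input at 2345, and without the YTHDF3 RIP the change was -0.58 and not called. Igfbp2, an insulin-like growth factor binding protein, was depleted with the RIPs together (-1.58 ± 0.39, edgeR adjusted p = 0.00522) without being a shared member. Eif5a was a shared depleted member, at 129 to 159.6 CPM in Input and 19.6 to 71.8 in the RIPs.

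The shared depleted set held much of the translation and respiration machinery. For comparison, 25.6% of all genes were depleted with the RIPs together and 13.8% were shared depleted. All 83 tested gene entries for cytosolic ribosomal proteins, which carry 81 different symbols, were depleted with the RIPs together. Their median log2 fold change was -2.62, and 65 of them were shared members. Rplp1, a stalk protein of the large subunit, was at 240.1, 250.2 and 232 CPM in Input, 9.11, 20.7 and 5.11 for YTHDF1, 12.2, 14.8 and 14.1 for YTHDF2, and 6.26, 2.7 and 2.91 for YTHDF3. The YTHDF3 libraries included the lowest values, and the change of the RIPs together was -4.81 ± 0.32. Rpsa, a small subunit protein, was at 526, 549 and 627 CPM in Input, 45.9, 89 and 33.4 for YTHDF1, 43.9, 46.9 and 56.1 for YTHDF2, and 35.9, 23 and 29.4 for YTHDF3. Its change was -3.71 ± 0.23, and the F test among the RIPs did not pass (edgeR adjusted p = 0.0826). The least depleted of the 83 was Rpl7l1 at -1.24 ± 0.15, with -1.25, -1.21 and -1.25 in the 3 RIPs. The ribosomal protein mRNAs are short, with a median exonic length of 1770 bases, and with the length trend removed their median was -2.26.

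Mitochondrial ribosomal proteins had 72 of 78 genes depleted and none enriched (median -1.20), against 25.6% and 23.0% of all genes. Subunits of the respiratory chain and ATP synthase encoded in the nucleus had 75 of 79 depleted and 2 enriched (median -2.27), and 64 of them were shared depleted. Atp5e, the epsilon subunit of ATP synthase, was at 22.5, 23.1 and 34.3 CPM in Input and 0.703 to 2.71 in the 9 RIP libraries, a change of -4.16 ± 0.30. Ndufs1, the largest subunit of complex I, ran against its list as a shared enriched member. It was at 50.9, 61.1 and 45.5 CPM in Input, 102, 129 and 141 for YTHDF1, 113, 103 and 109.7 for YTHDF2, and 76.8, 77 and 73.4 for YTHDF3. Its exonic length was 8086 bases, against a list median of 1718. Sdha, a subunit of complex II, was the other enriched gene (0.46 ± 0.16, edgeR adjusted p = 0.0323).

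Of 35 proteasome subunits, 23 were depleted and 1 enriched (median -1.01), against 25.6% and 23.0% of all genes. Psmb6, a catalytic core subunit, was at 40.0 to 56 CPM in Input and 5.92 to 16.4 in the RIPs, and Psmd2, a base subunit, was the enriched one at 0.48 ± 0.14 (edgeR adjusted p = 0.0128). Translation initiation and elongation factors had 36 of 61 depleted and 7 enriched (median -0.77), against the same shares of all genes. Members of both shared sets stood in this list. Eef1a1, the main elongation factor, was at 1042, 1099 and 1346 CPM in Input, 316, 833 and 389 for YTHDF1, 377, 429.7 and 309.6 for YTHDF2, and 312, 282 and 422 for YTHDF3. Eif4g1, the large scaffold of the cap-binding complex, was at 294, 311 and 306 CPM in Input, 1236, 1255 and 1634 for YTHDF1, 635, 604 and 774 for YTHDF2, and 667, 712 and 687 for YTHDF3. The 2 moved in opposite directions, -1.53 ± 0.25 and 1.50 ± 0.16, and the exonic length was 2493 bases for Eef1a1 and 7301 for Eif4g1.

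Lists of the cytoskeleton and of glycolysis came next. Of 24 genes for tubulins, actins and small actin-binding proteins, 16 were depleted and none enriched (median -1.13), against 25.6% and 23.0% of all genes. Tmsb4x, the actin-sequestering thymosin beta 4, was at 396, 314 and 407 CPM in Input, 21.6, 50.2 and 14 for YTHDF1, 26.7, 27.2 and 20.8 for YTHDF2, and 22.5, 11.5 and 11.9 for YTHDF3. The RIP libraries overlapped among themselves, and the change was -4.07 ± 0.30. Of 17 gene entries for glycolytic enzymes, 7 were depleted and 3 enriched, against 25.6% and 23.0% of all genes. Gapdh changed by -1.77 ± 0.23 and Pfkp, the platelet-type phosphofructokinase, by 1.26 ± 0.24, and each was a shared member. With the length trend removed, Pfkp was at 0.51 and not called. Replication-dependent histones, whose mRNAs end in a stem-loop in place of a poly(A) tail, had 25 of 65 depleted and none enriched. These compare with 25.6% and 23.0% of all genes. Their median with the RIPs together was -0.95, or -0.05 with the length trend removed (median exonic length 539 bases). Of the 65, 42 differed among the RIPs, against 32.3% of all genes, with medians of -0.51, 0.17 and -3.05 for YTHDF1, YTHDF2 and YTHDF3. Hist2h2aa1 and Hist2h2aa2 both averaged 121 CPM in Input. Reads with several alignments were counted at each, so such copies are not separate measurements.

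**Figure D3:**
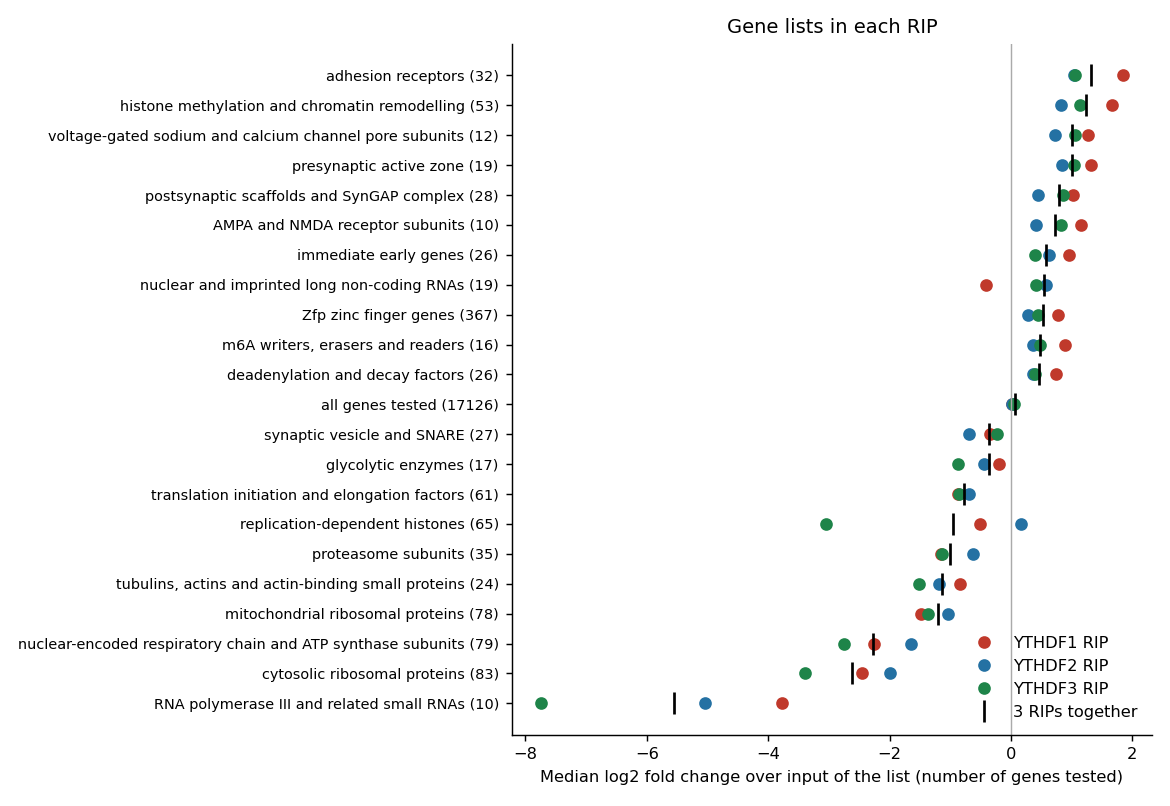
Median log2 fold change over input of each gene list in each RIP (points) and with the 3 RIPs together (vertical ticks), with the number of genes tested in parentheses. Adhesion receptors and chromatin genes lie at 1.32 and 1.24, and cytosolic ribosomal proteins at -2.62. RNA polymerase III and related small RNAs lie at -5.55, and the replication-dependent histones are spread from -3.05 to 0.17.

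The list of RNA polymerase III transcripts and related small RNAs had the lowest median of all lists, with all 10 gene entries depleted (median -5.55) and 9 of them shared members. These compare with 25.6% and 13.8% of all genes. Bc1, a brain-specific RNA linked to translational repression in dendrites, was at 311, 262 and 148 CPM in Input, 14.9, 15.4 and 6.09 for YTHDF1, 2.13, 1.64 and 4.92 for YTHDF2, and 4.08, 3.44 and 0.728 for YTHDF3. The YTHDF1 libraries were the highest of the RIPs, with a change of -5.71 ± 0.43. Rn7s1 and Rn7s2, copies of the 7SL RNA of the signal recognition particle, each changed by -5.99 ± 0.47, with 39360 to 43853 CPM for Rn7s1 in Input and 68.5 to 2941 in the RIPs. Their 300 bases are identical in the annotation and each read was counted for both, so they are 1 measurement. The first 30 bases of these transcripts are shown to let the copies be compared (GRCm38, GENCODE M21), Rn7s1 at chr12:69159295-69159324 on the plus strand, Rn7s2 at chr12:69361452-69361481 on the minus strand, the diverged copy Rn7s6 at chr6:69516339-69516368 on the plus strand and the unrelated Bc1 at chr7:144914470-144914499 on the plus strand.
Rn7s1: gccgggcgcggtggcgcacgcctgtagtcc
Rn7s2: gccgggcgcggtggcgcacgcctgtagtcc
Rn7s6: gccgggcacggtggcgcatgcctgtagtcc
Bc1: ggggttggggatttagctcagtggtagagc

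Rpph1, the RNA of ribonuclease P, was at 7452, 8057 and 8411 CPM in Input and 20.2 to 477 in the RIPs. Ccnb1ip1, the protein-coding gene that ranked first in the shared depleted set, had nearly the same values, 7450, 8055 and 8410 CPM in Input. The 2 genes overlap on the minus strand of chromosome 14 (Ccnb1ip1 50789248 to 50807732, Rpph1 50807449 to 50807767, GRCm38), and reads over both were counted for each, so the depletion of Ccnb1ip1 cannot be told apart from that of Rpph1. Exon sequence shared on the same strand with another annotated gene was found for 168 (11.6%) of the enriched and 257 (10.9%) of the depleted members, against 11.4% of all genes tested, and Snhg11, Gria2, Rpsa and Eef1a1 were among them. Of 138 pseudogenes tested and named for a ribosomal protein, 102 (73.9%) were shared depleted. Reads with several alignments were counted at each, so these pseudogenes and their parent mRNAs are not separate measurements.

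Long non-coding RNAs were divided. Of 19 tested in a list of nuclear and imprinted RNAs, 6 were enriched, 3 depleted and 12 differed among the RIPs. The shares of all genes were 23.0%, 25.6% and 32.3%. The list also named host genes of small nucleolar RNAs, among them Snhg11, and Norad, which the study calls cytoplasmic. Its median was 0.54, or -0.25 with the length trend removed. Malat1, a nuclear RNA, was at 9379, 9362 and 5746 CPM in Input, 1510, 1399 and 344 for YTHDF1, 21069, 14590 and 27541 for YTHDF2, and 3804, 2631 and 2456 for YTHDF3. It lay above all inputs for YTHDF2 and below them in the other RIPs, with log2 fold changes of -2.91, 1.37 and -1.46 (edgeR adjusted p among the RIPs 0.000238), so the mean of the RIPs describes none of the 3. Meg3, an imprinted RNA, changed by -1.58, 1.02 and 0.77 (adjusted p among the RIPs 0.00719). Among protein-coding genes called in opposite directions, Elavl1, which encodes the RNA-binding protein HuR, was at 71.2 to 78.8 CPM in Input, 669.8 to 2632 for YTHDF1 and 28.5 to 40.6 in the other RIPs. Rbms3, Onecut2, Samd12 and Synj2bp were the others with the widest spread over the 3 RIPs.

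Members were next compared among the RIPs. The F test among the RIPs passed for 618 (42.7%) of the enriched and 503 (21.3%) of the depleted members, against 5540 (32.3%) of all genes tested. Members had to be called in each of the same RIPs that this test compares. The choice of members therefore shapes these shares, which are descriptions only. Median normalized counts were 957, 164 and 197 for the enriched set, the depleted set and all genes, and the part of depth in these shares was not tested. The 3 log2 fold changes lay within 0.5 of each other for 556 (38.4%) of the enriched and 774 (32.8%) of the depleted members. The median log2 fold change over the enriched set was 1.50 for YTHDF1, 1.02 for YTHDF2 and 1.06 for YTHDF3, and over the depleted set it was -1.80, -1.60 and -1.97. In the enriched set, YTHDF1 was farthest from Input for 1086 (75%) of members under TMM scaling, but YTHDF3 was farthest for 813 (56.1%) when libraries were scaled by their size alone. In the depleted set, YTHDF3 was farthest for 1416 (59.9%) under TMM scaling, but YTHDF1 for 1677 (71%) under library size alone. All 3 RIPs kept their sign for 1443 of 1448 and 2362 of 2362 members under library size alone. All 9 RIP libraries lay on one side of all 3 inputs for 1391 (96.1%) of the enriched and 2316 (98.1%) of the depleted members, which is a description only, since the members were called against the same inputs. Of all genes, 12.7% had the RIPs above and 17.9% below.

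Gene length, which the choice of members did not use, separated the 2 sets. Among protein-coding genes with a transcript assigned, median exonic length was 7461 bases in the shared enriched set (quartiles 5222 and 10434, n = 1343), 2550 in the shared depleted set (1603 and 3790, n = 1550) and 4718 in the other genes tested (3084 and 7044, n = 10555). Among genes under 1 kb, 3 of 318 (0.943%) were shared enriched and 140 (44%) shared depleted. Among genes over 12 kb, 253 of 854 (29.6%) were shared enriched and 8 (0.937%) shared depleted. The shares rose or fell at each step of length between these ends, apart from the enriched share of 0.803% at 1 to 2 kb. In each of the 9 RIP libraries, the log2 ratio to mean input correlated with exonic length across genes, with Spearman values from 0.325 to 0.531. For the single inputs against their own mean, the values ran from -0.154 to 0.134. Genes of 1 library share its depth and are not independent replicates, so these values are descriptions. With a smooth length trend removed from each library, 651 (45%) of the 1448 enriched and 1483 (62.8%) of the 2362 depleted members were still called in all 3 RIPs.

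**Figure D4:**
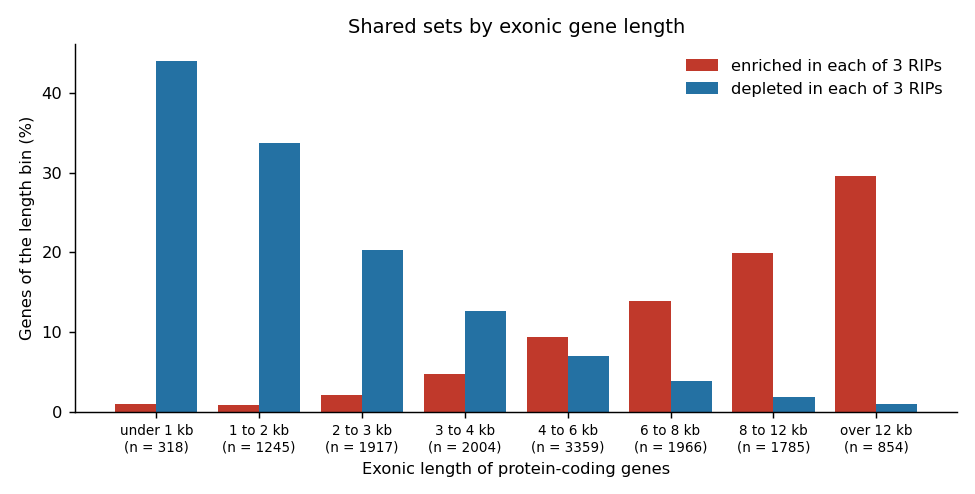
Percent of protein-coding genes in each exonic length bin that were enriched (red) or depleted (blue) in each of the 3 RIPs, with the number of genes under each bin. The enriched share goes from 0.943% under 1 kb to 29.6% over 12 kb, and the depleted share from 44% to 0.937%.

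Coding sequence and internal exons were long in the enriched members. In 1 transcript per gene, the coding sequence had a median of 3168 bases in the enriched, 616 in the depleted and 1479 in the other genes. The 3′ UTR had medians of 1278, 570.0 and 1046 bases. An internal exon of more than 400 bases was present in 48.5% of enriched, 2.97% of depleted and 19.6% of other genes. To hold length roughly constant, transcripts of 6 to 10 kb were split into tertiles by each feature. Of those in the tertile with the shortest 3′ UTRs, 50.7% were shared enriched, against 10.4% in the tertile with the longest. For the last exon these shares were 47.9 and 14.1%. For the longest internal exon they ran the other way, from 15.3% in the lowest to 46% in the highest tertile, and for the number of exons from 21.4 to 39.9%. Transcripts of 4 to 6 kb gave the same order for 3′ UTR length (27.1 against 7.6%) and longest internal exon (11.7 against 23.6%). Transcripts of 2 to 4 kb kept the order for 3′ UTR length (7.95 against 3.45%), but not for the last exon (6.3 against 6.74%) or the number of exons (6.85 against 6.19%).

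The motif GGACT, a frequent context of m6A, was counted on the sense strand of the same transcripts, with overlaps allowed. Its reverse complement AGTCC was counted beside it as a reference of the same GC content, though not the same number of each base. GGACT occurred at a median of 1.1 per kb in the enriched, 0.96 in the depleted and 1.04 in the other genes, and AGTCC at 0.994, 0.851 and 0.88. At least 1 GGACT was present in 98.8% of enriched, 79% of depleted and 91.6% of all protein-coding transcripts tested, which differ in length as given above. Within 6 to 10 kb, 25.5% of the tertile with the lowest and 36% of the tertile with the highest GGACT density were shared enriched, and for AGTCC the shares were 22 and 36%. Within 4 to 6 kb the enriched shares went from 14.2 to 18.6% for GGACT and from 16.3 to 16.8% for AGTCC, and within 2 to 4 kb from 4.38 to 7.78% and from 5.37 to 6.58%. Also within 2 to 4 kb, where more members were depleted, the shares of shared depleted genes were 10.3 and 5.59% from the lowest to the highest tertile of GGACT and 8.27 and 7.78% for AGTCC. GC content went with the enriched set as well, with 16.5% of the lowest and 40.3% of the highest tertile at 6 to 10 kb. A match is a description of the sequence and says nothing of methylation, which was not measured in these libraries. For 4 shared enriched genes, 1 GGACT in the coding sequence was picked. Of those with 8 bases on each side inside that sequence and in 1 exon, it was the nearest to its end. A GGACT of Zcchc14 still closer to the end was passed over. The picked motifs are shown in capitals with those 8 bases on each side (GRCm38, GENCODE M21). These are exonic coding positions, at chr2:157021348-157021368 in exon 14 of 15 of Soga1, chr4:141470199-141470219 in exon 13 of 16 of Spen, chr8:121602279-121602299 in exon 13 of 13 of Zcchc14 (all on the minus strand) and chr7:44357248-44357268 in exon 25 of 25 of Shank1 (plus strand).
Soga1: tccacccgGGACTgtagccac
Spen: ccccacctGGACTggctctgc
Zcchc14: gaaagtctGGACTccacggac
Shank1: accaaggaGGACTatgtggac

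**Figure D5:**
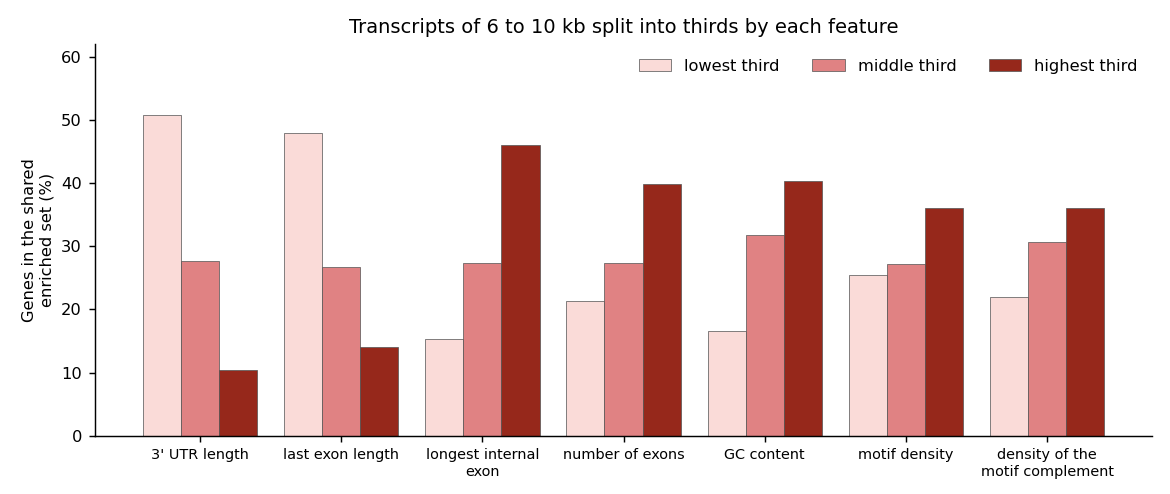
Percent of protein-coding genes in the shared enriched set among transcripts of 6 to 10 kb, split into the lowest, middle and highest tertile of each feature (bars, light to dark). The share falls from 50.7 to 10.4% with 3′ UTR length and rises from 15.3 to 46% with the longest internal exon, while the motif and its complement both end at 36%.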

How the data were processed

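RIP-seq libraries came from 3 input and 9 RIP samples. The authors extracted UMIs with UMI-tools 1.1.1, trimmed with cutadapt 3.4, aligned to mm10 with STAR 2.7.7a, removed duplicates by UMI and deposited counts per gene from featureCounts 2.0.1, run with the reverse strand setting and with reads on several genes or loci counted for each. The tables of the authors' own comparisons with DESeq2 hold log2 fold changes, their errors and p-values, and were not used. Counts were scaled by TMM and fitted over all 12 libraries with edgeR 4.0.16 (R 4.3.3, quasi-likelihood test), after dropping genes whose normalized counts averaged under 10. The RIPs were averaged with equal weight and compared with Input, each RIP was compared with Input, and an F test compared the 3 RIPs. Calls needed a fold change of 1.25 and an adjusted p of 0.05. The common biological coefficient of variation was 0.323, and library totals of 6020072 to 38909592 set the counting precision. Gene features came from GENCODE M21 (55480 of 55573 genes matched by ID), with the transcript of longest coding sequence for each gene. A check of pyrimidine runs at start sites was set aside for low coverage, since a sequence was found for only 60 of the 81 different symbols of ribosomal protein genes (74.1%). Named genes were the first 10 protein-coding and first 5 other genes of each set by the smallest of 3 fold changes, with counts averaging 100 or more and groups that did not overlap, together with the 3 most abundant and the most extreme members of each list, the RNAs followed by the study, and 5 genes called in opposite directions. Members and lists were chosen with earlier results of these data known. Alternatives were other scalings, filters, fold change minimums, DESeq2 1.42.0, a replicate block, removal of a length trend and leaving out libraries or a RIP. The rule selects 132 genes, and those whose values are not printed enter the counts only.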

Additional observations from a re-analysis of the deposited data

Results flagged for a closer look

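Among the leading members of the shared sets, 21 genes were singled out because the F test among the YTHDF1, YTHDF2 and YTHDF3 RIPs passed, although every RIP was on the same side of Input. On the enriched side the edgeR adjusted p-values were 0.014 for Soga1, 0.0202 for Tnrc18, 0.0182 for Mfhas1, 0.00121 for Spen, 0.0026 for Apc2, 8.96e-05 for Snhg11, 0.0485 for Ppp1r26 and 0.00345 for Zcchc14. Among members not annotated as protein-coding they were 0.0315 for Zfp469, 0.00678 for Peg13 and 0.000394 for AC134468.1. The YTHDF1 RIP was highest in these genes except Peg13, where the YTHDF2 RIP was, under the TMM scaling.

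On the depleted side the edgeR adjusted p-values were 0.0235 for Rplp1, 0.0328 for Rpl39, 0.0188 for Rps29 and 0.0384 for Rplp0, each lowest in the YTHDF3 RIP under the TMM scaling. Rpph1 and the overlapping Ccnb1ip1 gave 0.00726 and 0.00727. Rn7s1 and Rn7s2, which cannot be told apart, both gave 0.00217, Rn7s6 gave 0.00266 and Bc1 gave 0.0198. The order of the RIPs depended on the scaling between libraries, as the counts of members farthest from Input showed.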

How the results depend on the processing

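The shared depleted set and the genes depleted together stayed within 1.5 times their main counts under every alternative run. The genes enriched together fell to 1895 at a fold change of 2. The shared enriched set had 538 genes at a fold change of 2, 951 with the length trend removed and a replicate block, 2228 without the YTHDF2 RIP and 923 with each RIP fitted with Input alone and a replicate block (1419 without the block), an alternative chosen after seeing the data. With the replicate block alone, 3900 and 4344 genes were called together, 1380 and 2309 were shared and 4912 differed among the RIPs. Whether the numbers pair libraries was checked by correlating deviations from group means. Of 18 same-numbered pairs 8 were over 0.1 (range -0.348 to 0.829), with Input and YTHDF3 at 0.528 to 0.829, Input and YTHDF1 at -0.322 to 0.0907 and Input and YTHDF2 at -0.323 to 0.178, and the best match had the same number in 12 of 36 cases. The methods describe a shared lysate per replicate, but the labels do not tie the numbers to it, so the fit without the block was kept and whether the numbers pair the libraries is unsettled. Leaving out 1 library gave 2923 to 4243 genes enriched and 3758 to 4841 depleted together, 977 to 1762 shared enriched, 1892 to 2781 shared depleted, 3891 to 6681 different among the RIPs, 22.4 to 25.6 percentage points for the protein-coding share and 0.409 to 0.453 for the length correlation. Of 132 named genes, 88 had the same call under every alternative. Among named genes called in at least 1 of the 2 fits compared, directions turned for Ptprs (-0.56), Cacna1c (-0.24) and Map2 (-0.14) with the length trend removed, and with the block added for Ptprs (-0.55), Cacna1c (-0.24), Map2 (-0.14) and Meg3 (-0.81). Without the YTHDF1 RIP they turned for Elavl1 (-1.10) and Onecut2 (-0.95). The cause was not tested. The YTHDF2 RIP libraries were the shallowest, at 6020072 to 9259893 counts, and a call missed there leaves a gene out of the shared sets.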
